A study of Mus musculus with 24 samples.

Results

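Zfp is the mouse symbol given to a large class of zinc finger proteins, and the account below follows the probes of these genes in blood RNA after irradiation. Most members carry repeated C2H2 zinc fingers, small loops held by a zinc ion, of which each contacts a few bases of DNA, and the fingers are joined by a short conserved linker. In many of them a KRAB domain recruits the corepressor Trim28 (KAP1), which brings in the histone methyltransferase Setdb1 and heterochromatin protein 1 and silences retroelements and other chromatin. Others bind RNA, take part in ribosome assembly or act as lineage regulators of lymphocytes, and Zfp is therefore a name shared by genes of different roles and not a pathway.

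The probes were chosen by name and by detection: of 570 probes for 349 genes whose name is Zfp and a number, 236 probes for 182 genes were well above background, per the scanner software's own call, on at least 10 of 24 arrays. Of the remaining probes, 152 passed that call on 1 to 9 arrays and 182 on no array. The 24 one-colour Agilent mouse arrays measured blood RNA of male C57BL/6J mice 24 h after exposure. The groups were Gadd45aKO at 7 Gy of x-rays (9 arrays), Gadd45aKO at 0 Gy (5 arrays), Gadd45aWT at 7 Gy (5 arrays) and Gadd45aWT at 0 Gy (5 arrays), called KO-labelled and WT here. No label gives an age, a line or the part of Gadd45a that was deleted, and the design text speaks of independent experiments without naming the animals, so a p-value reflects only how far these arrays vary, which may be technical. Levels are log2 intensities after subtracting the array's 75th percentile, differences are log2 changes with standard errors (SE) from a limma fit across 19651 tested probes, and a probe was called higher or lower at a Benjamini-Hochberg adjusted p under 0.05.

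Several arrays stood apart or went against their label. The probe for Gadd45a averaged 0.00 ± 0.34 on KO-labelled 7 Gy arrays (SD, n = 9) against −1.21 ± 0.32 on WT 7 Gy arrays (SD, n = 5), and 0.51 ± 0.16 on KO-labelled 0 Gy arrays (SD, n = 4) against 0.65 ± 0.23 on WT 0 Gy arrays (SD, n = 5). The KO-labelled minus WT difference was 1.20 ± 0.18 at 7 Gy (SE; limma adjusted p = 5.33e-05) and −0.15 ± 0.21 at 0 Gy (SE; limma adjusted p = 0.861), so the probe was not called lower under the KO label at either dose. Whether it lies in the deleted part is not stated, so every direction given for KO-labelled arrays rests on the label alone. KO-labelled 0 Gy replicates 1 and 4 differed by less than the repeat spots within an array (ratio 0.703) and were counted as 1 sample, which gives n = 4. The ratio was also under 1 for KO-labelled 7 Gy replicates 1 and 2 (0.997) and 2 and 4 (0.961), and WT 7 Gy replicates 1 and 2 (0.964). The main fit kept these apart, so n = 9 and n = 5 may count near-repeats as separate samples. Averaging them too, an alternative given at the end, called fewer Zfp probes lower in the difference of responses and between labels at 7 Gy. The same held over all tested probes, with 1747 against 2351 and 2455 against 3487 called lower. Hepatocyte genes averaged 1.27 to 1.38 on WT 7 Gy replicates 3 to 5, against −2.17 and −2.20 on WT 7 Gy replicates 1 and 2 and −5.86 to −5.59 on WT 0 Gy arrays. In KO-labelled arrays they averaged −4.12 to −2.17 at 7 Gy against −6.36 to −3.30 at 0 Gy. Of 18 hepatocyte genes measured, 11 were called higher in KO-labelled arrays and 16 in WT arrays. WT 7 Gy replicates 3 to 5 are called liver-rich here. Each array holds only 1 sample and the number of arrays limits the precision.

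The shared structure of these genes can be read in the probes. The linker between neighbouring C2H2 fingers is spelled threonine, glycine, glutamate, lysine and proline, and its codons were searched with any base at the free last positions. On the strand printed, 9 of the 236 Zfp probes (3.81%) held it, against 23 of the 19651 tested probes (0.117%). The probes below, 60 bases each with coordinates of mm9, show the linker codons in capitals. The first 4 belong to genes that were lower in KO-labelled arrays after 7 Gy, and the last to a gene that was lower in WT arrays.
Zfp936, chr7:50445732-50445791, plus strand: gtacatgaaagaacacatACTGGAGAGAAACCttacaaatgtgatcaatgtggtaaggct
Zfp442, chr2:150234210-150234269, minus strand: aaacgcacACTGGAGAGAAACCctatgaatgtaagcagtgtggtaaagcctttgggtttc
Zfp972, chr2:177654632-177654691, minus strand: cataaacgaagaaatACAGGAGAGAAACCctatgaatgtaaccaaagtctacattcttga
Zfp967, chr2:175208144-175208203, plus strand: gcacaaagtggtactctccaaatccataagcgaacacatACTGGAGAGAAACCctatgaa
Zfp689, chr7:134587980-134588039, minus strand: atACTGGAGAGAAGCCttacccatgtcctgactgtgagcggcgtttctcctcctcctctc

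The change after 7 Gy was −1.33 ± 0.22 (SE; limma adjusted p = 4.79e-05) for Zfp936, −1.18 ± 0.20 (SE; limma adjusted p = 5.28e-05) for Zfp442, −0.97 ± 0.35 (SE; limma adjusted p = 0.0276) for Zfp972 and −0.78 ± 0.26 (SE; limma adjusted p = 0.0177) for Zfp967 in KO-labelled arrays. None of these 4 passed the test in WT arrays, where their changes lay between −0.47 and 0.33. Zfp689 fell by 1.72 ± 0.43 on the log2 scale in WT arrays (limma adjusted p = 0.00477). Because the finger repeats are alike across the family, a probe in this region may bind transcripts of related genes, and the values of such probes are uncertain in the gene they belong to.

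The question of the first comparison was how the Zfp probes responded to 7 Gy within each genotype label. In KO-labelled arrays 136 of the 236 probes (57.6%) were called lower after 7 Gy and 15 (6.36%) higher, where 34.8% of all tested probes were called lower and 12.0% higher. In WT arrays 26 Zfp probes (11.0%) were called lower and 7 (2.97%) higher, where 13.2% of all tested probes were called lower and 9.83% higher. The median log2 change of the Zfp probes was −0.79 in KO-labelled arrays and −0.16 in WT arrays, beside −0.29 and −0.05 over all tested probes. These probes were selected on detection, so the counts describe the probes that passed and are no test of the class. Among all probes detected on at least 10 arrays 36.2% were called lower in KO-labelled arrays and 13.6% in WT arrays. Fewer cells of a type and less RNA per cell cannot be told apart in such bulk samples.

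The median over the Zfp probes was also taken on each array. The median level of the 236 Zfp probes lay between −5.83 and −5.12 on the 9 KO-labelled 7 Gy arrays, against −4.77 to −4.44 on the KO-labelled 0 Gy arrays. On WT arrays it lay between −5.29 and −4.91 at 7 Gy, against −4.89 to −4.77 at 0 Gy. Irradiated and unirradiated arrays did not overlap in this median in either label, while the 2 irradiated groups did. Slides 1 to 5 each held 1 array of every group, and within these 5 slides the median Zfp change minus that of all tested probes was −0.70 to −0.45 in KO-labelled arrays and −0.21 to −0.0039 in WT arrays.

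**Figure D1:**
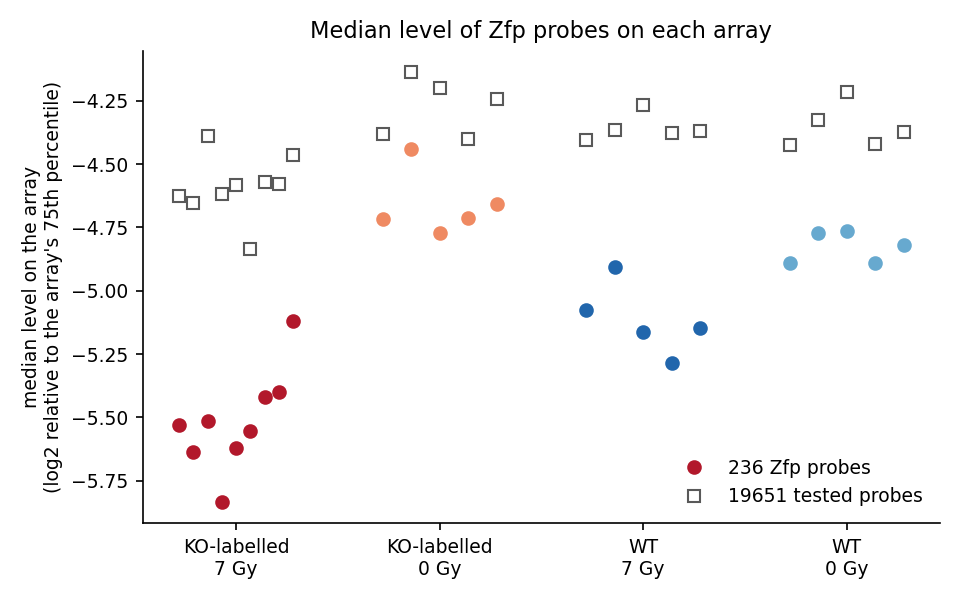
Median level (log2 after subtracting the array's 75th percentile) of the 236 Zfp probes (filled circles) and of the 19651 tested probes (open squares) on each array, by group. The KO-labelled 7 Gy arrays lie between −5.83 and −5.12 for Zfp probes, below all 0 Gy arrays, and overlap the WT 7 Gy arrays, which lie between −5.29 and −4.91.

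**Figure D2:**
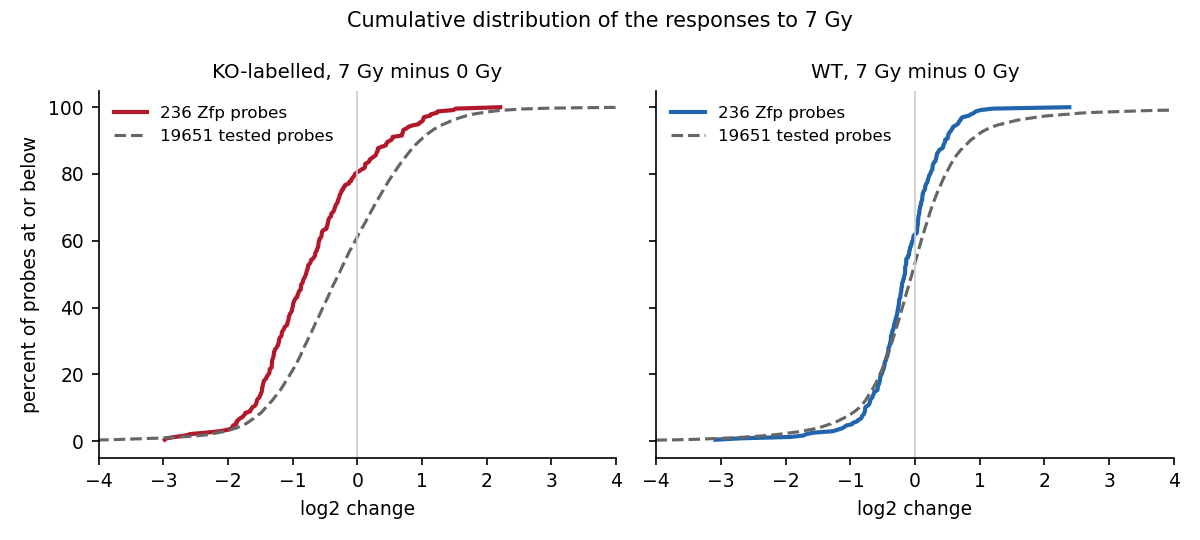
Cumulative percent of probes at or below a given log2 change (7 Gy minus 0 Gy) in KO-labelled arrays (left) and WT arrays (right), for 236 Zfp probes (solid) and 19651 tested probes (dashed). The Zfp curve lies left of the dashed one in KO-labelled arrays, with medians of −0.79 and −0.29, and close to it in WT arrays, with medians of −0.16 and −0.05.

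Detection and scaling moved with these counts. The share of the 236 probes well above background ran from 32.6% to 100% on KO-labelled 7 Gy arrays, from 47.5% to 99.6% on KO-labelled 0 Gy arrays, from 73.3% to 86.9% on WT 7 Gy arrays and from 73.7% to 99.2% on WT 0 Gy arrays. Of the 61 Zfp probes detected on all 24 arrays, 28 (45.9%) were called lower in KO-labelled arrays, beside 37.1% of all probes so detected. Of the 73 Zfp probes detected on 10 to 16 arrays 68.5% were, beside 36.2% of all probes in that range. After normexp background correction with an offset of 50, above the median processed signal of 34.7 of the Zfp probes, 1 probe was called lower and 5 higher in KO-labelled arrays, and 0 lower and 1 higher in WT arrays, and 30 of the 99 called changes of named genes turned direction. Over all tested probes normexp gave 619 lower and 913 higher in KO-labelled arrays, and 409 and 404 in WT arrays. With the slide as a block 140 Zfp probes were called lower and 27 higher in KO-labelled arrays and 12 higher in WT arrays. Of all 19651 tested probes 7500, 4121 and 2271 were. Scaling to the 75th percentile of all probes gave 98 lower and 25 higher in KO-labelled arrays, with medians of −0.46 for Zfp probes and 0.04 for all tested probes. It called 4326 of all tested probes lower and 3721 higher. Without the 3 liver-rich WT 7 Gy arrays 7 Zfp probes were called lower and 2 higher in WT arrays, where 1069 and 927 of all tested probes were. The WT median was then −0.02 for Zfp probes and −0.03 for all tested probes.

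The 11 Zfp probes detected on exactly 10 arrays, among them Zfp770, Zfp287 and Zfp335, changed by −1.56 to −0.40 in KO-labelled arrays with a median of −1.25. The 11 probes detected on 9 arrays, which were left out, changed by −2.85 to 0.54 with a median of −1.41.

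The counts by role that follow stand beside shares of all tested probes of 34.8% called lower and 12.0% higher in KO-labelled arrays, and 13.2% lower and 9.83% higher in WT arrays, and beside 57.6% of the Zfp probes called lower in KO-labelled arrays. Of 11 detected genes with a known part in RNA metabolism, ribosome assembly or translation, 9 were called lower and 0 higher in KO-labelled arrays, with a median change of −0.99, and 2 were called lower and 0 higher in WT arrays, with a median of −0.45. Zfp638, a nucleic acid-binding protein whose human form represses unintegrated retroviral DNA, had a lowest, median and highest level of −4.35, −4.17 and −3.68 on KO-labelled 7 Gy arrays, against −2.83, −2.45, −2.86, −2.94 and −2.24 on KO-labelled 0 Gy arrays. It stood at −3.54, −3.62, −3.48, −3.54 and −3.34 on WT 7 Gy arrays, against −3.22, −2.81, −2.99, −2.92 and −2.84 on WT 0 Gy arrays. Neither pair of groups overlapped, and the change was −1.48 ± 0.15 (SE; limma adjusted p = 1.40e-07) in KO-labelled arrays and −0.55 ± 0.16 (SE; limma adjusted p = 0.0168) in WT arrays. Zfp622, whose yeast counterpart matures the large ribosomal subunit, had a lowest, median and highest level of −1.24, −1.03 and −0.44 on KO-labelled 7 Gy arrays, against 0.04, −0.09, 0.03, −0.02 and 0.28 on KO-labelled 0 Gy arrays. Its levels were −0.33, −0.25, −0.78, −0.90 and −0.52 on WT 7 Gy arrays, against −0.23, −0.39, −0.25, −0.38 and −0.06 on WT 0 Gy arrays. The KO-labelled groups were apart and the WT groups overlapped, with changes of −0.99 ± 0.16 (SE; limma adjusted p = 4.40e-05) and −0.29 ± 0.17 (SE; limma adjusted p = 0.255).

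Zfp36 (tristetraprolin), which binds AU-rich elements and speeds mRNA decay, had a lowest, median and highest level of −8.53, −7.56 and −6.83 on KO-labelled 7 Gy arrays, against −5.74, −7.09, −5.56, −5.68 and −5.19 on KO-labelled 0 Gy arrays. On WT arrays it had −7.47, −6.53, −5.29, −5.48 and −5.47 on WT 7 Gy arrays, against −5.40, −5.27, −5.14, −5.35 and −5.58 on WT 0 Gy arrays. KO-labelled 0 Gy replicate 2 lay among the irradiated arrays and WT 7 Gy replicates 1 and 2 lay below all other WT arrays; both pairs overlapped. Its change was −1.74 ± 0.39 (SE; limma adjusted p = 8.33e-04) in KO-labelled arrays and −0.70 ± 0.41 (SE; limma adjusted p = 0.246) in WT arrays, and only 1 of the 9 KO-labelled 7 Gy arrays detected it. Quantile normalization ended the KO-labelled call (limma adjusted p = 0.0511). The largest change of the group was that of Zfp593, a nucleolar protein known from yeast for ribosome export, at −1.78 ± 0.38 (SE; limma adjusted p = 5.58e-04) in KO-labelled arrays. Zfp106, an RNA-binding protein that motor neurons of the mouse need, changed by −1.46 ± 0.37, and Zfp346, which binds double-stranded RNA, by −1.22 ± 0.33. Zfp330 and Zfp706 fell by 0.92 ± 0.22 and 0.85 ± 0.17 on the log2 scale. Zfp207, a spindle assembly factor, was at −0.55 ± 0.17 (SE; limma adjusted p = 0.0121), a p that was 0.0872 without KO-labelled 0 Gy replicate 5. A second, dimmer probe of Zfp207 changed by 0.69 and did not pass, so the direction of this gene is uncertain. Zfp598, the sensor of collided ribosomes in human cells, was at −0.36 ± 0.33 (SE; limma adjusted p = 0.383) and Zfp830 at −0.68 ± 0.43 (SE; limma adjusted p = 0.205).

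Of 9 detected genes on a list of lymphoid and signalling regulators, which was drawn up with earlier results of these data known, 7 were called lower and 0 higher in KO-labelled arrays with a median of −1.55, and 3 lower and 0 higher in WT arrays with a median of −0.27. Zfp318, which lets mature B cells of the mouse express IgD, had a lowest, median and highest level of −7.63, −6.70 and −5.44 on KO-labelled 7 Gy arrays, against −3.75, −4.55, −3.66, −3.61 and −3.99 on KO-labelled 0 Gy arrays. Its WT levels were −6.73, −6.29, −6.67, −6.52 and −7.09 on WT 7 Gy arrays, against −3.95, −3.94, −3.87, −4.09 and −3.99 on WT 0 Gy arrays. In each label all irradiated arrays lay below all unirradiated ones. The change was −2.58 ± 0.27 (SE; limma adjusted p = 1.38e-07) in KO-labelled arrays and −2.69 ± 0.28 (SE; limma adjusted p = 2.47e-07) in WT arrays, and a second probe gave −2.96 and −3.08. The difference between the responses was 0.11 ± 0.39 (SE; limma adjusted p = 0.875).

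Zfp296, known in the mouse from pluripotent cells, had a lowest, median and highest level of −8.06, −6.87 and −6.09 on KO-labelled 7 Gy arrays, against −4.17, −3.65, −4.24, −4.11 and −4.14 on KO-labelled 0 Gy arrays. It had −6.47, −7.06, −5.38, −5.38 and −5.83 on WT 7 Gy arrays, against −4.45, −4.29, −4.11, −4.39 and −4.46 on WT 0 Gy arrays. Again neither pair overlapped, and it changed by −2.98 ± 0.35 (SE; limma adjusted p = 6.12e-07) in KO-labelled arrays and −1.68 ± 0.37 (SE; limma adjusted p = 0.00167) in WT arrays. Zfp608, a repressor of the Rag genes in mouse thymocytes, fell by 2.81 ± 0.32 in KO-labelled arrays and by 1.27 ± 0.34 in WT arrays. Zfp831 had a lowest, median and highest level of −8.30, −7.77 and −7.05 on KO-labelled 7 Gy arrays, against −4.86, −6.02, −4.77, −4.90 and −4.64 on KO-labelled 0 Gy arrays. On WT arrays its levels were −5.40, −5.77, −5.97, −6.14 and −6.07 on WT 7 Gy arrays, against −6.33, −5.52, −5.27, −5.57 and −5.61 on WT 0 Gy arrays. It was separated by dose in KO-labelled arrays and not in WT arrays, with changes of −2.66 ± 0.26 (SE; limma adjusted p = 7.26e-08) and −0.21 ± 0.28 (SE; limma adjusted p = 0.673). Of the KO-labelled 7 Gy arrays 1 of 9 detected it, so its level there is close to background.

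Zfp341, which activates STAT3 transcription in humans, had a lowest, median and highest level of −7.39, −6.34 and −5.77 on KO-labelled 7 Gy arrays, against −5.05, −4.81, −5.16, −5.10 and −4.78 on KO-labelled 0 Gy arrays. Its levels were −5.44, −5.14, −5.09, −5.43 and −4.76 on WT 7 Gy arrays, against −4.84, −4.90, −4.97, −4.89 and −4.99 on WT 0 Gy arrays. The KO-labelled groups did not overlap and the WT groups did, with changes of −1.55 ± 0.23 (SE; limma adjusted p = 8.92e-06) and −0.26 ± 0.24 (SE; limma adjusted p = 0.514). Zfp710 changed by −0.90 ± 0.33 in KO-labelled arrays and Zfp335, needed for mouse thymocyte maturation, by −0.84 ± 0.33 (limma adjusted p = 0.0286 and 0.0396). Leaving out KO-labelled 0 Gy replicate 5 gave a limma adjusted p = 0.119 for Zfp710 and 0.190 for Zfp335, and for Zfp335 6 other arrays ended the call too. Zfp609 and Zfp467 did not pass the test in either label. Of 16 B cell markers all 16 were called lower in both labels, while in WT arrays 3 of these 9 Zfp genes were, and the markers' mean level was −6.70 to −4.99 on KO-labelled 7 Gy arrays against −1.85 to −1.31 at 0 Gy, and −6.43 to −5.25 on WT 7 Gy arrays against −2.21 to −2.13 at 0 Gy. Of 18 T cell markers 10 were called lower and 1 higher in KO-labelled arrays, and 6 lower and 2 higher in WT arrays. Their mean level on an array was −3.51 to −2.54 on KO-labelled 7 Gy arrays against −2.05 to −1.62 on KO-labelled 0 Gy arrays, and −2.89 to −2.16 on WT 7 Gy arrays against −2.14 to −1.89 on WT 0 Gy arrays. The part of these cells in the Zfp changes was not tested.

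Silencers of retroelements and guardians of imprints were called lower in part. Of 6 detected, 4 were called lower and 0 higher in KO-labelled arrays, with a median of −1.17, and 0 lower and 0 higher in WT arrays, with a median of −0.09, where 0 also passed an unadjusted p under 0.05. Zfp809, which silences murine leukaemia virus in mouse embryonic stem cells, had a lowest, median and highest level of −7.39, −6.19 and −4.78 on KO-labelled 7 Gy arrays, against −4.91, −4.31, −5.09, −4.88 and −4.46 on KO-labelled 0 Gy arrays. In WT it had −5.73, −5.66, −5.76, −5.51 and −5.45 on WT 7 Gy arrays, against −5.72, −5.08, −5.60, −5.85 and −5.14 on WT 0 Gy arrays. Both pairs overlapped, the KO-labelled one through replicate 9 at 7 Gy, and the changes were −1.54 ± 0.33 (SE; limma adjusted p = 5.89e-04) and −0.14 ± 0.35 (SE; limma adjusted p = 0.843). Zfp445, which keeps imprints together with Zfp57, had a lowest, median and highest level of −7.21, −6.34 and −4.84 on KO-labelled 7 Gy arrays, against −4.80, −4.41, −4.996, −4.62 and −5.11 on KO-labelled 0 Gy arrays. Its WT levels were −4.97, −4.87, −4.98, −4.98 and −4.88 on WT 7 Gy arrays, against −5.17, −4.69, −4.90, −5.50 and −5.40 on WT 0 Gy arrays. All 5 WT 7 Gy arrays lay between −4.98 and −4.87, inside the range of WT 0 Gy arrays, and the changes were −1.27 ± 0.29 (SE; limma adjusted p = 9.56e-04) and 0.20 ± 0.30 (SE; limma adjusted p = 0.724). Zfp809 had a second, dimmer probe, which changed by −0.19 in KO-labelled arrays and did not pass. Zfp57 itself was at −1.06 ± 0.40 and Zfp932, a silencer of endogenous retroviruses, at −1.32 ± 0.53 in KO-labelled arrays. These calls ended without KO-labelled 0 Gy replicate 2 or any of 4 other arrays for Zfp57, and without KO-labelled 0 Gy replicate 5 or any of 6 other arrays for Zfp932. The call of Zfp57 also ended with the slide as a block (limma adjusted p = 0.303) and with the replicate number as a block (limma adjusted p = 0.333). Both calls ended without the liver-rich arrays (limma adjusted p = 0.0512 and 0.0604). Zfp568 and Zfp961 did not pass the test.

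Of 8 general transcription factors detected, 4 were called lower and 1 higher in KO-labelled arrays, with a median of −0.61, and 0 were called in WT arrays in either direction. Zfp217, an oncogene of human breast cancer, had a lowest, median and highest level of −4.02, −3.74 and −2.93 on KO-labelled 7 Gy arrays, against −2.28, −3.23, −2.28, −2.26 and −1.53 on KO-labelled 0 Gy arrays. It had −3.08, −2.91, −2.35, −2.16 and −1.94 on WT 7 Gy arrays, against −2.35, −2.03, −2.16, −2.13 and −1.91 on WT 0 Gy arrays. Both pairs overlapped, and WT 7 Gy replicates 1 and 2 lay below replicates 3 to 5; the changes were −1.21 ± 0.27 (SE; limma adjusted p = 7.01e-04) and −0.37 ± 0.28 (SE; limma adjusted p = 0.392). Zfp143, a promoter-bound activator of small RNA and protein-coding genes, changed by −1.41 ± 0.24 in KO-labelled arrays. The GC-box binding factors Zfp148 and Zfp281 changed by −0.60 ± 0.18 and −0.62 ± 0.22. Both of these calls ended under scaling to the median, with limma adjusted p = 0.108 and 0.143, and that of Zfp281 also without KO-labelled 0 Gy replicate 3 or 5. Zfp219 was higher by 0.84 ± 0.29 (SE; limma adjusted p = 0.0210), which did not pass without KO-labelled 0 Gy replicate 5 (limma adjusted p = 0.120). Zfp367, Zfp410 and Zfp574 did not pass the test.

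Of 8 genes on a list for DNA damage and SUMO, 4 were called lower and 1 higher in KO-labelled arrays, with a median of −0.49, and 0 lower and 1 higher in WT arrays. A part in either is not stated here for every gene, so the counts describe the list. The gene called higher in both was Zfp365, whose human form is a p53 target that helps stalled replication forks recover. Zfp365 had a lowest, median and highest level of −6.30, −5.91 and −5.61 on KO-labelled 7 Gy arrays, against −6.29, −6.60, −6.78, −8.38 and −8.02 on KO-labelled 0 Gy arrays. On WT arrays it had −5.18, −5.44, −5.83, −6.22 and −5.80 on WT 7 Gy arrays, against −7.50, −7.66, −8.51, −8.24 and −8.49 on WT 0 Gy arrays. Irradiated arrays lay above unirradiated ones in WT, and in KO-labelled arrays replicate 9 at 7 Gy, at −6.30, touched replicate 1 at 0 Gy, at −6.29. The change was 1.23 ± 0.25 (SE; limma adjusted p = 3.12e-04) in KO-labelled arrays and 2.39 ± 0.26 (SE; limma adjusted p = 3.72e-07) in WT arrays. KO-labelled 0 Gy replicates 1 and 4, averaged as 1 sample, lay far apart for this probe, at −6.29 and −8.38, so its KO-labelled 0 Gy level is uncertain. The probe was not well above background on any of the 5 WT 0 Gy arrays and was on all 5 WT 7 Gy arrays, which makes the WT rise at least 2.36-fold.

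Zfp407, Zfp507 and the SUMO ligase Zfp451 fell by 1.94 ± 0.29, 1.62 ± 0.34 and 1.36 ± 0.32 on the log2 scale in KO-labelled arrays (limma adjusted p = 1.27e-05, 4.61e-04 and 0.00135). Zfp687, which in human cells joins the chromatin reader ZMYND8 together with Zfp592, had a lowest, median and highest level of −4.84, −4.53 and −3.55 on KO-labelled 7 Gy arrays, against −3.81, −3.57, −3.997, −3.86 and −3.63 on KO-labelled 0 Gy arrays. It had −3.31, −3.47, −3.40, −3.31 and −3.15 on WT 7 Gy arrays, against −3.997, −3.62, −3.89, −3.93 and −3.74 on WT 0 Gy arrays. All WT 7 Gy arrays lay above all WT 0 Gy arrays, and the KO-labelled groups overlapped through replicates 6 and 9 at 7 Gy. The changes were −0.60 ± 0.19 (SE; limma adjusted p = 0.0133) and 0.51 ± 0.20 (SE; limma adjusted p = 0.0785), and the first did not pass under scaling to the median (limma adjusted p = 0.145). Zfp592, Zfp644 and Zfp668 did not pass the test in either label.

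**Figure D3:**
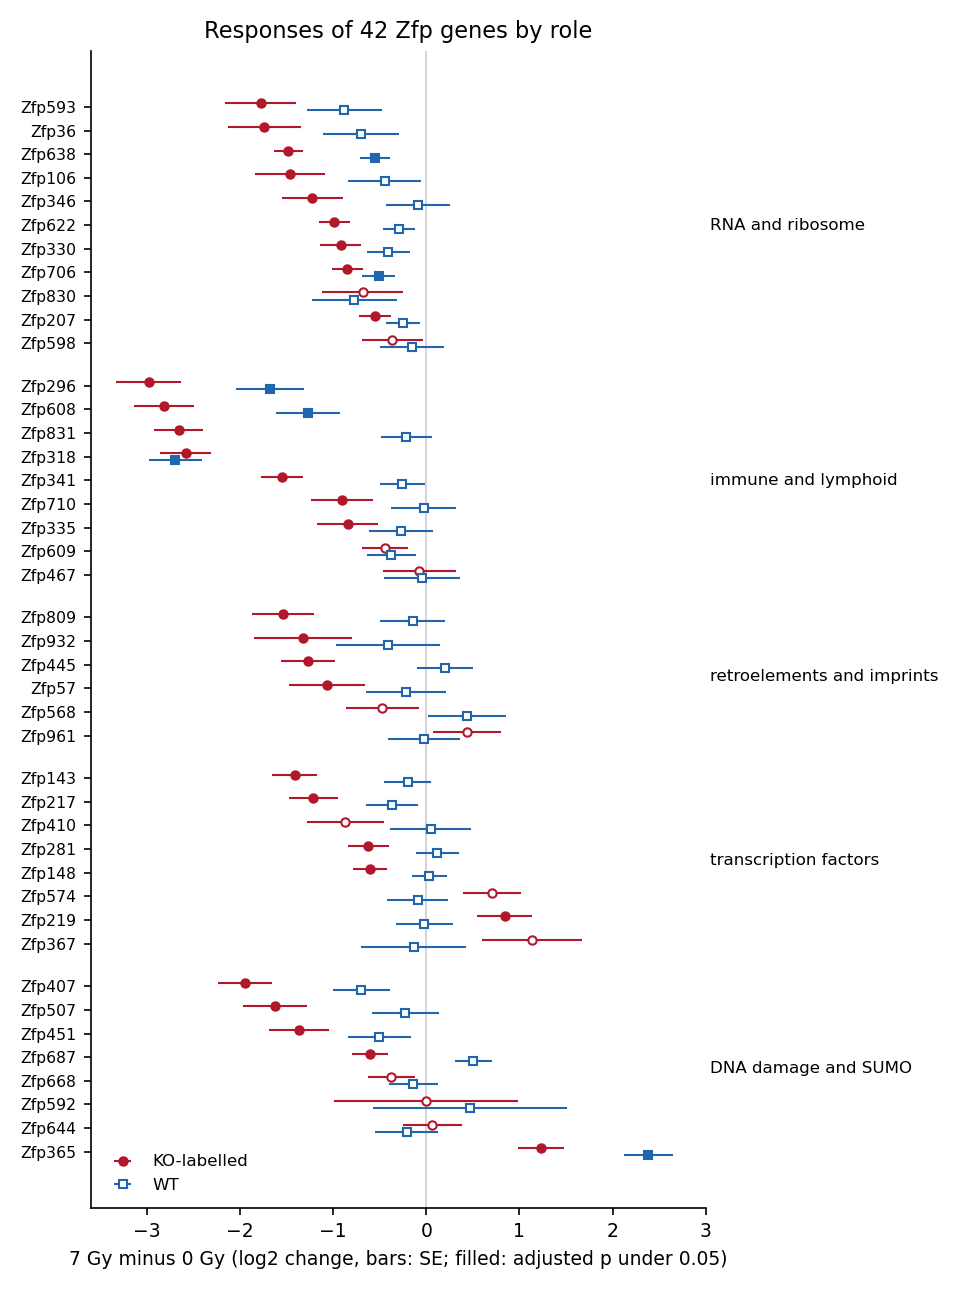
Log2 change at 7 Gy against 0 Gy (points, with SE as bars) of the 42 Zfp genes on the role lists in KO-labelled arrays (circles) and WT arrays (squares), grouped by role. Filled points passed an adjusted p of 0.05. Most KO-labelled points lie left of 0, and Zfp365 lies to the right in both.

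Genes outside the role lists fell as well. Zfp82 had a lowest, median and highest level of −8.24, −6.80 and −6.15 on KO-labelled 7 Gy arrays, against −4.68, −4.41, −4.75, −4.55 and −4.70 on KO-labelled 0 Gy arrays. On WT arrays it had −5.10, −5.56, −6.72, −6.08 and −5.92 on WT 7 Gy arrays, against −5.31, −5.06, −5.34, −4.89 and −4.93 on WT 0 Gy arrays. The KO-labelled groups did not overlap and the WT groups did, with changes of −2.34 ± 0.32 (SE; limma adjusted p = 3.78e-06) and −0.77 ± 0.33 (SE; limma adjusted p = 0.105). Zfp1, detected on all 24 arrays, had a lowest, median and highest level of −5.24, −4.76 and −4.20 on KO-labelled 7 Gy arrays, against −2.42, −2.69, −2.17, −2.63 and −3.59 on KO-labelled 0 Gy arrays. Its WT levels were −3.88, −3.70, −3.93, −3.99 and −4.31 on WT 7 Gy arrays, against −2.28, −2.83, −2.98, −3.18 and −3.07 on WT 0 Gy arrays. Both pairs were fully apart, with changes of −2.01 ± 0.24 (SE; limma adjusted p = 6.57e-07) and −1.09 ± 0.25 (SE; limma adjusted p = 0.00241). Zfp472, Zfp777, Zfp758 and Zfp51 fell by 1.87 ± 0.20, 1.76 ± 0.34, 1.73 ± 0.21 and 1.66 ± 0.19 on the log2 scale in KO-labelled arrays, and Zfp791 by 1.88 ± 0.48.

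In WT arrays Zfp422, Zfp90, Zfp566, Zfp472 and Zfp800 were among the called falls, at −1.57 ± 0.39, −0.97 ± 0.33, −0.96 ± 0.29, −0.83 ± 0.21 and −0.82 ± 0.24. Without the 3 liver-rich WT 7 Gy arrays the adjusted p was 0.815 for Zfp90, 0.745 for Zfp566, 0.500 for Zfp472, 0.565 for Zfp800, 0.108 for Zfp1 and 0.0610 for Zfp689. The limma adjusted p without them was also 0.0946 for Zfp638, 0.121 for Zfp691, 0.133 for Zfp715 and 0.178 for Zfp706, whose WT call ended when any of 10 single arrays was left out. Zfp318, Zfp296, Zfp422 and Zfp608 passed without them. The call of Zfp90 also ended when any of 7 single arrays was left out, that of Zfp566 without WT 7 Gy replicate 3, 4 or 5, and that of Zfp800 without WT 7 Gy replicate 3.

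Fewer Zfp genes rose. Zfp691 had a lowest, median and highest level of −2.87, −1.43 and −0.75 on KO-labelled 7 Gy arrays, against −2.88, −2.83, −2.73, −2.86 and −3.85 on KO-labelled 0 Gy arrays. It had −1.10, −0.97, −1.30, −1.36 and −1.83 on WT 7 Gy arrays, against −1.84, −2.25, −2.41, −2.43 and −2.71 on WT 0 Gy arrays. The KO-labelled pair overlapped only through replicates 7 and 9 at 7 Gy, and the changes were 1.52 ± 0.34 (SE; limma adjusted p = 9.31e-04) and 1.02 ± 0.36 (SE; limma adjusted p = 0.0448); the WT call ended when any of 9 single arrays was left out, with p up to 0.106. Zfp316 had a lowest, median and highest level of −0.66, 0.04 and 0.24 on KO-labelled 7 Gy arrays, against −0.86, −1.62, −0.95, −0.87 and −1.61 on KO-labelled 0 Gy arrays. On WT arrays it had −0.64, −0.72, −0.40, −0.30 and −0.34 on WT 7 Gy arrays, against −0.50, −1.04, −1.12, −0.83 and −1.14 on WT 0 Gy arrays. Irradiated and unirradiated arrays were apart in KO-labelled blood, and the changes were 1.24 ± 0.18 (SE; limma adjusted p = 1.06e-05) and 0.45 ± 0.19 (SE; limma adjusted p = 0.101). Zfp663 had a lowest, median and highest level of 3.18, 4.45 and 4.74 on KO-labelled 7 Gy arrays, against 3.17, 2.73, 3.04, 3.16 and 1.79 on KO-labelled 0 Gy arrays. Its WT levels were 4.62, 4.87, 3.74, 3.82 and 3.58 on WT 7 Gy arrays, against 4.47, 3.83, 3.64, 3.74 and 3.59 on WT 0 Gy arrays. The change was 1.48 ± 0.32 (SE; limma adjusted p = 6.37e-04) in KO-labelled arrays, where the lowest irradiated array lay just above the highest unirradiated one, and 0.27 ± 0.34 (SE; limma adjusted p = 0.654) in WT arrays.

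The other called rises in KO-labelled arrays were 1.13 ± 0.32 for Zfp648, 1.02 ± 0.33 for Zfp628, 0.96 ± 0.21 for Zfp664, 0.69 ± 0.21 for Zfp282, 0.53 ± 0.16 for Zfp414 and 0.49 ± 0.18 for Zfp646. Zfp628, Zfp663, Zfp408, Zfp646 and Zfp692 held the probes with the highest mean signal of the class. Quantile normalization ended the calls of Zfp628 (limma adjusted p = 0.790) and Zfp646 (limma adjusted p = 0.107), as did leaving out KO-labelled 0 Gy replicate 5, with limma adjusted p = 0.0953 and 0.0619. Zfp628 had a second, dimmer probe, which changed by −0.41 in KO-labelled arrays and did not pass. The call of Zfp414 ended with the slide as a block (limma adjusted p = 0.0616) and with the replicate number as a block (limma adjusted p = 0.0588). In WT arrays the other called gene beside Zfp365 and Zfp691 was Zfp715 at 0.87 ± 0.26 (SE; limma adjusted p = 0.0192), which did not pass without WT 0 Gy replicate 4 or 5 (limma adjusted p = 0.0707 and 0.0730).

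Other settings ended further calls of named genes. In KO-labelled arrays scaling to the median and scaling to the 75th percentile of all probes each ended those of Zfp148, Zfp207, Zfp281, Zfp335, Zfp57, Zfp687, Zfp710 and Zfp932. Quantile normalization ended these and those of Zfp36, Zfp106, Zfp628 and Zfp646, and fitting with no filter ended those of Zfp207, Zfp219, Zfp281, Zfp335, Zfp57, Zfp646, Zfp687, Zfp710 and Zfp932. In WT arrays quantile normalization ended the calls of Zfp90, Zfp422, Zfp566, Zfp608, Zfp691, Zfp715 and Zfp800, and fitting with no filter those of Zfp90, Zfp566, Zfp638, Zfp691, Zfp706, Zfp715 and Zfp800.

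**Figure D4:**
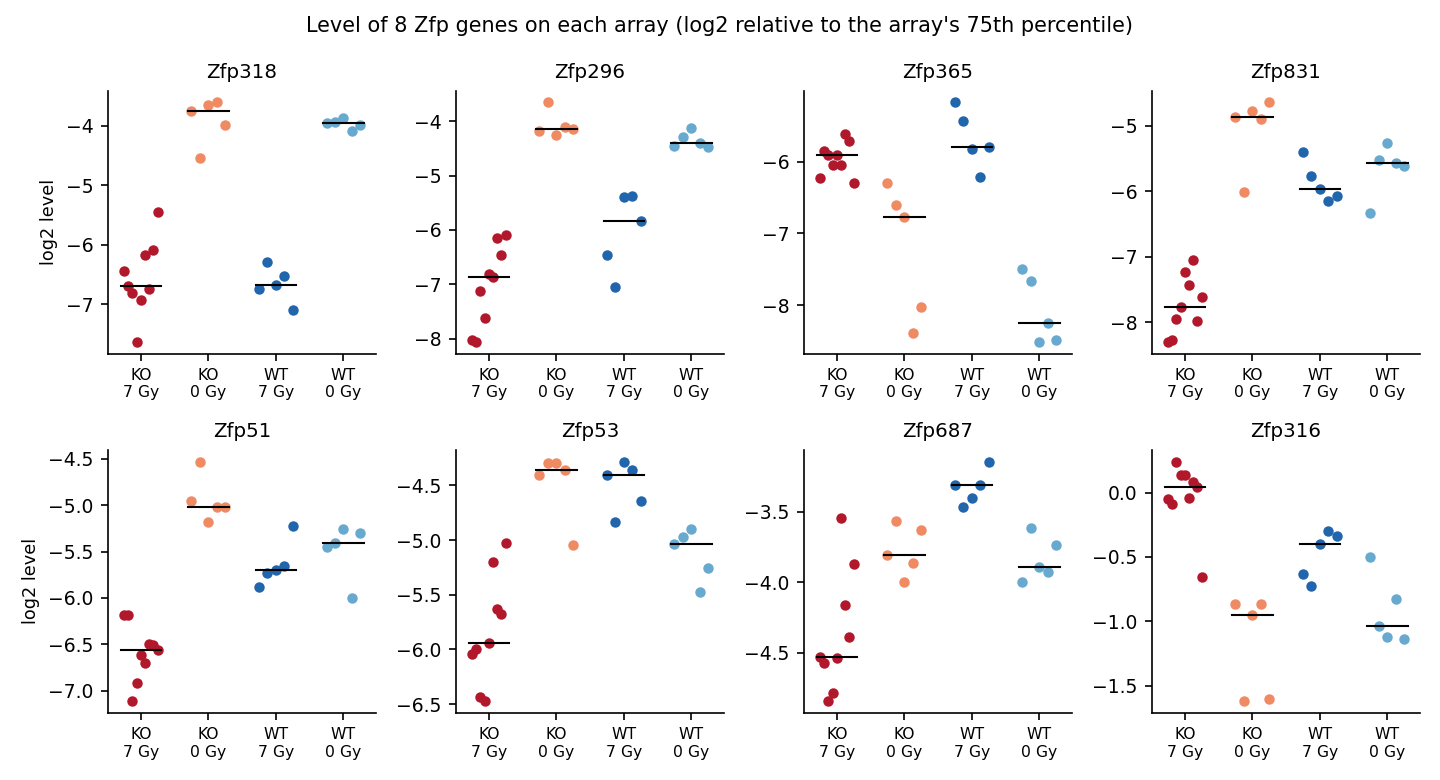
Level of 8 Zfp genes on each array (log2 after subtracting the array's 75th percentile), with points for arrays and lines for group medians. Zfp318 is low on all irradiated arrays of both labels, Zfp365 is higher on most of them than on unirradiated arrays, and Zfp831 and Zfp51 are lowest on KO-labelled 7 Gy arrays.

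The second question was whether the responses differed between the labels, tested as the KO-labelled response minus the WT response. The difference was called lower for 38 Zfp probes (16.1%) and higher for 3 (1.27%), where 12.0% and 3.16% of all tested probes were. The median difference of the Zfp probes was −0.61, beside −0.28 over all tested probes. Markers of other cells were called in this comparison too: 7 of 10 NK and cytotoxic markers were lower (median −1.58), as were 5 of 13 neutrophil markers (median −1.08), 6 of 18 T cell markers (median −0.71) and 9 of 18 hepatocyte genes (median −3.06), and 4 of 12 platelet markers were higher (median 0.995). Of 13 erythroid markers 2 were higher (median 1.04). Lower were 2 of 9 monocyte markers (median 0.14) and 1 of 16 B cell markers (median −0.39). Their part in the Zfp differences was not tested. The largest fitted difference was that of Zfp831, detected on 1 of the 9 KO-labelled 7 Gy arrays and so measured there close to background, at −2.44 ± 0.38 (SE; limma adjusted p = 9.26e-04), followed by Zfp53 at −1.94 ± 0.34 (SE; limma adjusted p = 0.00190) and Zfp975 at −1.86 ± 0.40 (SE; limma adjusted p = 0.00525). Zfp52, Zfp51, Zfp341, Zfp687 and Zfp638 were called at −1.70 ± 0.38, −1.50 ± 0.27, −1.30 ± 0.33, −1.11 ± 0.28 and −0.93 ± 0.22. Zfp82, Zfp608, Zfp777, Zfp445 and Zfp182 were called too, at −1.58 ± 0.46, −1.54 ± 0.47, −1.51 ± 0.50, −1.47 ± 0.42 and −1.41 ± 0.43. The 3 probes called higher were those of Zfp316, at 0.79 ± 0.26 (SE; limma adjusted p = 0.0470), of Zfp414, at 0.68 ± 0.23 (SE; limma adjusted p = 0.0486), and 1 of the probes of Zfp664, at 1.003.

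The count depended on scaling: it was 21 lower after scaling to the median, 8 (with 3 higher) after scaling to the 75th percentile of all probes, 6 (with 3 higher) after quantile normalization and 87 (with 12 higher) with the slide as a block, and it was 24 without KO-labelled 0 Gy replicate 2, 24 without replicate 5 and 67 without KO-labelled 7 Gy replicate 9. Zfp51, Zfp53 and Zfp975 passed under every alternative in which they were tested except normexp correction, and Zfp831 under every one except that and quantile normalization (limma adjusted p = 0.0591). Leaving out KO-labelled 0 Gy replicate 2 ended the calls of Zfp82 and Zfp445 (limma adjusted p = 0.0529 and 0.0537), and any of 19 single arrays ended that of Zfp316, of 18 that of Zfp414, of 17 that of Zfp777, of 7 that of Zfp608 and of 3 that of Zfp182. Without the 3 liver-rich WT 7 Gy arrays 21 Zfp probes were called lower and 0 higher, where 1048 and 129 of all 19651 tested probes were. In that fit the limma adjusted p was 0.0803 for Zfp341, 0.0798 for Zfp687, 0.0728 for Zfp638, 0.0979 for Zfp445, 0.291 for Zfp608, 0.0882 for Zfp777, 0.0725 for Zfp316 and 0.103 for Zfp414. Scaling to the 75th percentile of all probes ended the calls of Zfp82, Zfp182, Zfp341, Zfp365, Zfp445, Zfp608, Zfp638, Zfp687 and Zfp777, and quantile normalization ended these and those of Zfp52 and Zfp831. The authors' value table lacked calls for Zfp52 and the 9 genes that the 75th percentile ended, and scaling to the median ended those of Zfp82, Zfp182, Zfp365 and Zfp777. Of the calls named here, those of Zfp316, Zfp414, Zfp82, Zfp182, Zfp365, Zfp445, Zfp608, Zfp687 and Zfp777 also ended with no filter and without the arrays of high repeat-spot CV, and that of Zfp638 with no filter. The call of Zfp414 ended with the slide as a block (limma adjusted p = 0.0858) and with the replicate number as a block (limma adjusted p = 0.0766). In Zfp365 the rise was smaller in KO-labelled arrays, with a difference of −1.16 ± 0.36 (SE; limma adjusted p = 0.0334), a call that any of 8 single arrays ended and that rests on WT 0 Gy signals below background.

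**Figure D5:**
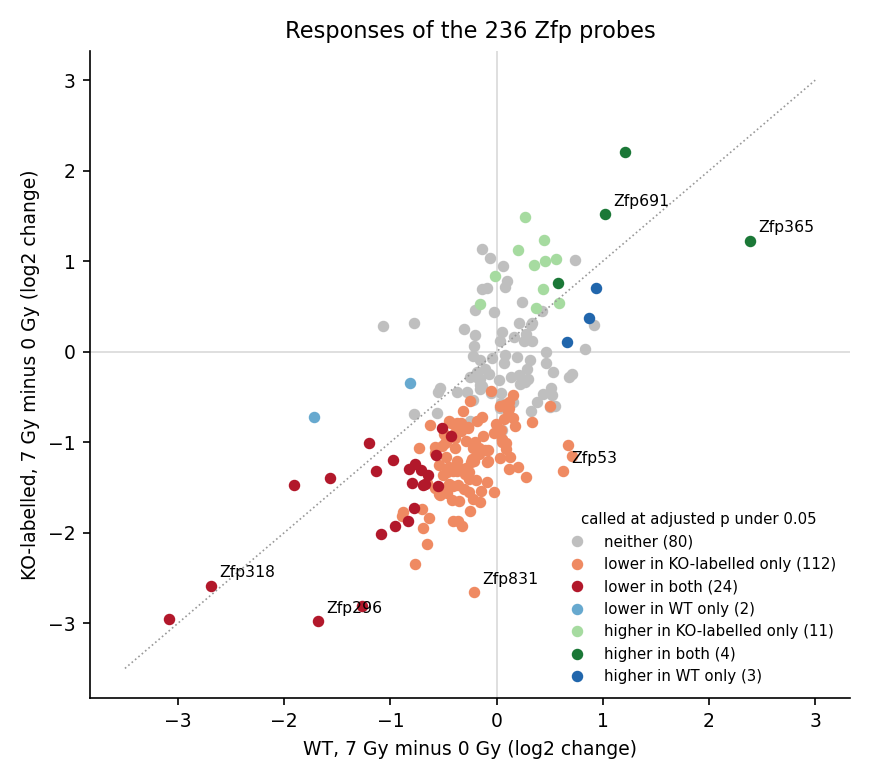
Log2 change after 7 Gy in KO-labelled arrays (vertical axis) against that in WT arrays (horizontal axis) for each of the 236 Zfp probes, coloured by which changes passed an adjusted p of 0.05. The dotted line marks equal changes. Of the probes, 112 were called lower in KO-labelled arrays alone and 24 in both.

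By joint call, 112 Zfp probes (47.5%) were lower in KO-labelled arrays alone, 24 (10.2%) in both labels and 2 (0.847%) in WT alone, where 24.0%, 10.2% and 2.91% of all tested probes were. Higher were 11 (4.66%) in KO-labelled arrays alone, 4 (1.69%) in both and 3 (1.27%) in WT alone, beside 7.33%, 4.59% and 4.67% of all tested probes. The remaining 80 (33.9%) were called in neither, beside 45.7%. No Zfp probe was called in opposite directions in the 2 labels. Of all tested probes 0.57% were called higher in WT and lower in KO-labelled arrays, and 0.0509% the other way. The changes of the 236 probes in the 2 labels had a Pearson correlation of 0.641 across probes, beside 0.623 over all 19651 tested probes, which describes probes that share arrays and slides. A call in 1 label alone does not show a difference between labels, which the test of the responses' difference addresses.

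The labels were also set against each other at each dose. At 0 Gy limma called 0 Zfp probes higher and 0 lower, where 0.158% and 0.0712% of all tested probes were called, and at an unadjusted p under 0.05 it found 16 higher and 3 lower. At 7 Gy 61 Zfp probes (25.8%) were called lower and 2 (0.847%) higher in KO-labelled arrays than in WT arrays, where 17.7% and 4.46% of all tested probes were. In the same comparison 8 of 10 NK and cytotoxic markers (median −1.09), 9 of 13 neutrophil markers (median −1.48), 6 of 18 T cell markers (median −0.47) and 13 of 18 hepatocyte genes (median −2.58) were lower, and 6 of 13 erythroid markers (median 0.69) were higher. Of the neutrophil markers 1 was called higher, as was 1 of 12 platelet markers (median 0.39). Lower were 3 of 9 monocyte markers (median 0.10) and 1 of 16 B cell markers (median 0.24). The mean level of the NK and cytotoxic markers was −3.78 to −3.34 on KO-labelled 7 Gy arrays against −2.94 to −2.17 on WT 7 Gy arrays, and that of the neutrophil markers −2.57 to −1.04 against −1.52 to −0.25. Their part in the Zfp differences was not tested. Zfp831, Zfp341, Zfp53, Zfp292 and Zfp687 differed by −1.86 ± 0.25, −1.34 ± 0.21, −1.32 ± 0.22, −1.10 ± 0.16 and −1.03 ± 0.18, and their groups did not overlap. Zfp445, Zfp106, Zfp710, Zfp217 and Zfp975 were lower too, at −1.14 ± 0.27, −1.07 ± 0.34, −1.05 ± 0.31, −1.05 ± 0.25 and −1.03 ± 0.25. Zfp672 was higher by 0.64 ± 0.19 (SE; limma adjusted p = 0.0176) on 1 of its 3 probes, and the other probe called higher was a second one of Zfp975, at 0.49. Scaling to the 75th percentile of all probes gave 27 lower and 5 higher, and the slide as a block 97 lower and 12 higher. Of all 19651 tested probes 1749 were lower and 1651 higher under that scaling, and 4856 and 2336 with the block. Without the 3 liver-rich WT 7 Gy arrays 30 Zfp probes were called lower and 0 higher, where 1236 and 126 of all tested probes were. The calls of Zfp445, Zfp106, Zfp710, Zfp217, Zfp975 and Zfp672 ended without them. The call of Zfp106 also ended under scaling to the 75th percentile of all probes and after quantile normalization, and the authors' value table gave none for Zfp445, Zfp106, Zfp710 and Zfp217. Those of Zfp106, Zfp710 and Zfp672 ended without WT 7 Gy replicate 3, 4 or 5 alone.

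Many Zfp genes lie beside each other. Taking 1 probe per gene, 60 of the 182 genes fell into 9 runs of at least 4 genes spaced by at most 1000000 bases in mm9. Of all 182 genes, 110 were called lower in KO-labelled arrays, 22 in WT arrays and 35 in the difference of responses. Of all tested probes 34.8%, 13.2% and 12.0% were. The run with the most genes, on chromosome 17 between 21535980 and 22593639, held 11, and 10 of these were called lower in KO-labelled arrays, 1 in WT arrays and 7 in the difference of responses. Its median change was −1.08 in KO-labelled arrays and −0.11 in WT arrays. Zfp51, at chr17:21602359-21602418, had a lowest, median and highest level of −7.11, −6.57 and −6.18 on KO-labelled 7 Gy arrays, against −4.95, −4.53, −5.18, −5.02 and −5.02 on KO-labelled 0 Gy arrays. It had −5.88, −5.73, −5.70, −5.65 and −5.23 on WT 7 Gy arrays, against −5.46, −5.41, −5.26, −5.998 and −5.30 on WT 0 Gy arrays. Its KO-labelled groups were apart and its WT groups overlapped. Zfp53, at chr17:21647137-21647196, had a lowest, median and highest level of −6.47, −5.94 and −5.03 on KO-labelled 7 Gy arrays, against −4.41, −4.29, −4.30, −4.36 and −5.04 on KO-labelled 0 Gy arrays. On WT arrays it had −4.41, −4.84, −4.28, −4.36 and −4.65 on WT 7 Gy arrays, against −5.04, −4.97, −4.90, −5.47 and −5.26 on WT 0 Gy arrays. There all irradiated arrays lay above all unirradiated ones, and in KO-labelled arrays 7 Gy replicate 9, at −5.03, met 0 Gy replicate 5, at −5.04.

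Next to them Zfp52, Zfp943, Zfp946, Zfp944 and Zfp758 changed by −1.03 ± 0.26, −1.47 ± 0.15, −1.38 ± 0.32, −0.87 ± 0.16 and −1.73 ± 0.21 in KO-labelled arrays, and Zfp995 by −0.61 ± 0.36, which did not pass. On chromosome 13 between 67393554 and 67616724, 5 of 6 genes were called lower in KO-labelled arrays, and on chromosome 7 between 49867999 and 50848218 5 of 6 were. On chromosome 7 between 4871046 and 5005178, where Zfp628 lies, 1 of 5 was called lower and 1 higher, and 3 of 10 were lower and 1 higher between 134381189 and 135024784. In the remaining runs 2 of 4 were lower and 1 higher on chromosome 17 from 32910629, and 2 of 6 lower and 1 higher on chromosome 6. Called lower were also 3 of 8 on chromosome 7 from 30614327 and 3 of 4 on chromosome 8. The runs were drawn after the values had been seen and were not tested against each other. Neighbouring Zfp genes are often related by duplication, and their probes may bind each other's transcripts.

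Probes of the same gene did not always give the same answer. Of the 182 genes, 48 had several member probes, 102 probes in all. In KO-labelled arrays 3 genes, Zfp457, Zfp646 and Zfp975, had probes called in opposite directions. For Zfp646 the brighter probe changed by 0.49 and the dimmer one, detected on 13 arrays, by −1.84. Of the 4 probes of Zfp975 the one named above changed by −1.15, while the others changed by 0.70 to 1.001, so the response of this gene is uncertain. The probes of Zfp664 changed by 2.21 and 0.96 in the same direction.

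The promoters of the members were searched for core motifs. RefSeq (GRCm38.p6) gave the 250 bases before and 50 after the start for 153 of the 182 genes. The ETS core CCGGAAG stood on either strand of 19.0% of them, against 9.12% of 27025 promoters in the table. The palindromic NRF1 core stood in 4.58% against 0.977%, the YY1 core AAGATGGC in 5.88% against 2.88%, and TATAAA in 4.58% against 14.2%. The GC box GGGCGG stood in 51.0% against 35.9%, CCAAT in 50.3% against 37.9%, and the p53 half-site in 7.19% against 8.37%. The median count of the dinucleotide CG was 15 in member promoters against 7 in all promoters. The ETS, NRF1 and GC box cores contain CG, and the promoters in the table were not limited to genes detected in blood. The part of either in these shares was not tested. Of the 91 member promoters whose gene was called lower in KO-labelled arrays, 7 held the NRF1 core and 8 the YY1 core, against 0 and 1 of the other 62. The ETS core stood in 18 of the 91 against 11 of the 62, the GC box in 48 against 30, CCAAT in 52 against 25, TATAAA in 4 against 3, and the p53 half-site in 4 against 7. These splits were not tested. The ETS and YY1 cores share their AAG and overlapped in 1 member promoter. The promoters below, of genes lower in KO-labelled arrays with a called difference of responses, show every match to these 3 cores in capitals, the ETS core in Zfp53, the NRF1 core in Zfp82 and the YY1 core in Zfp341, and coordinates are those of GRCm38.p6.
Zfp53, chr17:21488738-21489037, plus strand: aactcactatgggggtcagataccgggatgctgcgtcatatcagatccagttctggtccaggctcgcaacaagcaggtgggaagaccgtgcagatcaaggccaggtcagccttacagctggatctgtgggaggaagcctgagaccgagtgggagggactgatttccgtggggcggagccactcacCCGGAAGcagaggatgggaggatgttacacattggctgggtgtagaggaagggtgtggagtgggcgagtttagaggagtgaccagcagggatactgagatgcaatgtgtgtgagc
Zfp82, chr7:30072774-30073073, minus strand: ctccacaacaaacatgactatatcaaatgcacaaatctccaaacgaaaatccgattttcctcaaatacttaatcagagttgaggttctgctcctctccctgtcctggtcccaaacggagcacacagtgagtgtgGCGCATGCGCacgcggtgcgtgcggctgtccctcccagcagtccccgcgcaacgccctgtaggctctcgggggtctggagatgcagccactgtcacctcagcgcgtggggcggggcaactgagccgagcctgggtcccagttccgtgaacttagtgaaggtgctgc
Zfp341, chr2:154613118-154613417, plus strand: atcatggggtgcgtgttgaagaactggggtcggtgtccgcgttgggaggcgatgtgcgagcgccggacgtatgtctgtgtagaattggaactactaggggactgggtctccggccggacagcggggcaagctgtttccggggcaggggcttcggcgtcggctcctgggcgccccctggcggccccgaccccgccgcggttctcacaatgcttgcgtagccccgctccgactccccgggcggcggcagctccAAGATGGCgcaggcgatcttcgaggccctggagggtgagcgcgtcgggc

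A match is a stretch of letters and not a measured site. The motif shares describe the sequences, and no binding was measured here.

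Genes of chromatin silencing were measured too, among them Trim28 and other genes that are not part of the corepressor complex of KRAB zinc finger proteins. Of 21 genes on this list, 17 were called lower and 0 higher in KO-labelled arrays, with a median of −0.998, where 34.8% of all tested probes were called lower with a median of −0.29. The counts therefore describe the list and not that complex. In WT arrays 5 were lower and 0 higher, with a median of −0.39, where 13.2% of all tested probes were called lower with a median of −0.05. Trim28 itself changed by −0.84 ± 0.40 (SE; limma adjusted p = 0.0899) in KO-labelled arrays and −0.80 ± 0.42 (SE; limma adjusted p = 0.192) in WT arrays, neither past the threshold. The histone methyltransferases Ehmt1 and Suv39h2 changed by −2.07 ± 0.50 (SE; limma adjusted p = 0.00159) and −1.71 ± 0.33 (SE; limma adjusted p = 2.20e-04) in KO-labelled arrays. Cbx1, a heterochromatin protein 1, changed by −1.55 ± 0.19 (SE; limma adjusted p = 7.75e-07) and Mphosph8, of the HUSH complex, by −1.44 ± 0.25 (SE; limma adjusted p = 6.74e-05). In WT arrays Uhrf1, which reads hemimethylated DNA, changed most, by −1.92 ± 0.26 (SE; limma adjusted p = 6.45e-06). The difference of responses was −1.31 ± 0.31 (SE; limma adjusted p = 0.00892) for Atf7ip, which stabilises Setdb1, and −1.09 ± 0.25 (SE; limma adjusted p = 0.00807) for Chd3, a nucleosome remodeller.

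Zinc finger factors of blood that do not bear the Zfp name gave 18 called lower and 1 higher of 30 in KO-labelled arrays, with a median of −0.90, and 7 lower and 2 higher in WT arrays, with a median of −0.23. Of all tested probes 34.8% were called lower and 12.0% higher in KO-labelled arrays, with a median of −0.29. In WT arrays 13.2% were called lower and 9.83% higher, with a median of −0.05. Bcl11a, needed for B cell development, changed by −4.99 ± 0.39 (SE; limma adjusted p = 2.95e-09) in KO-labelled arrays and −4.86 ± 0.41 (SE; limma adjusted p = 1.31e-08) in WT arrays. Bcl6, the germinal centre repressor, changed by −2.44 ± 0.29 (SE; limma adjusted p = 6.57e-07) in KO-labelled arrays, and its difference of responses was −2.05 ± 0.42 (SE; limma adjusted p = 0.00415). Gfi1b, which platelet and red cell precursors need, was higher by 1.94 ± 0.18 (SE; limma adjusted p = 1.80e-08) and 1.12 ± 0.18 (SE; limma adjusted p = 9.23e-05). Platelet markers moved in the same direction, with 11 of 12 called higher in KO-labelled arrays and 7 of 12 in WT arrays. Erythroid markers did not: of 13, 5 were called higher and 6 lower in KO-labelled arrays, and 0 higher and 6 lower in WT arrays. The part of these cells in the Gfi1b change was not tested. Ikzf1 and Zeb1, lymphoid regulators, differed between the responses by −1.38 ± 0.37 (SE; limma adjusted p = 0.0165) and −1.60 ± 0.43 (SE; limma adjusted p = 0.0175).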

How the data were processed

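Blood RNA was measured on 24 one-colour Agilent arrays of 6 slides, read from the green channel although some labels name other dyes. The intensities are the authors' deposited scanner output of Agilent Feature Extraction 12.0.2, per the file headers, already background-subtracted. From 44397 spots a file, 43020 were not controls and formed 39429 probes. Repeat spots were averaged without outlier flags, log2 was taken, and the 75th percentile of the array, taken over 7857 probes that all arrays detected, was subtracted. The fit covered 19651 probes that at least 5 arrays detected, in limma 3.58.1 in R 4.3.3 (data.table, version 1.17.8), as 4 groups with Benjamini-Hochberg adjustment over all of them, and tables and figures were made with Python 3.11.15, NumPy 2.4.6, pandas 2.3.3 and matplotlib 3.10.9.

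The Zfp probes and the gene lists were chosen with earlier results of these data known. Named genes were the 10 largest called changes in each direction and comparison, at 1 probe per gene (that of the highest mean) and detected on every array of a compared group, together with all members on the role lists and the 5 of the highest mean signal. Of the 236 probes, 221 were matched to RefSeq by accession and 15 by symbol. KO-labelled 0 Gy replicates 1 and 4 were averaged. Same-numbered arrays of slides 1 to 5 share a slide, and KO-labelled 7 Gy replicates 6 to 9 share slide 6. Deviations of same-numbered arrays correlated between −0.23 and 0.695 (median 0.184), above 0.1 in 18 of 30 pairs, and between 0.42 and 0.695 for replicate 3. The design text does not name the animals, so a pairing of animals cannot be told apart from the shared slide. The main fit held no block and so ignored this shared variation. With the slide or the replicate number as a block, an alternative, more Zfp probes were called in the difference of responses. These block fits counted KO-labelled 0 Gy replicates 1 and 4 as separate samples, so the rise is not due to the block alone. Counting them separately with no block gave 50 Zfp probes called lower, beside 38 in the main fit. Other alternatives were the scaling, normexp with an offset of 50, the filter, left-out arrays and the averaging of other alike arrays, the last chosen after seeing the data.

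The authors' deposited values, 12900 entries of which 37 are controls, are log2 processed signals with a floor of 10 before the log and a constant per array whose origin is not stated. The column medians, in replicate order, were 5.82, 6.09, 6.10, 6.53, 7.18, 6.37, 6.20, 5.81 and 6.23 for KO-labelled 7 Gy, 5.93, 6.19, 6.36, 6.41 and 6.41 for KO-labelled 0 Gy, 5.87, 5.93, 6.30, 6.22 and 6.12 for WT 7 Gy and 5.75, 6.03, 6.39, 6.39 and 5.999 for WT 0 Gy. No columns of other samples were present (0). On simulated data for the WT response over 19651 probes, 46% of changes of 1 and 84% of changes of 2 on the log2 scale were recovered.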

Additional observations from a re-analysis of the deposited data

Results flagged for a closer look

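In 5 of the 84 sets of arrays examined for genes described array by array, 1 array stood far from the others of its group, and chance alone gives that in about 5% of sets. KO-labelled 0 Gy replicates 1 and 4 entered these sets as their average, so the ranges below hold that average. Zfp51 was at −5.998 in WT 0 Gy replicate 4, while the others of that group lay between −5.46 and −5.26. Zfp53 was at −5.04 in KO-labelled 0 Gy replicate 5, while the others of that group lay between −4.38 and −4.29. Zfp316 was at −0.66 in KO-labelled 7 Gy replicate 9, while the others of that group lay between −0.09 and 0.24. Zfp663 was at 4.47 in WT 0 Gy replicate 1, while the others of that group lay between 3.59 and 3.83. Zfp691 was at −3.85 in KO-labelled 0 Gy replicate 5, while the others of that group lay between −2.87 and −2.73.

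The response to 7 Gy differed between the labels, by the limma test of the difference (KO-labelled minus WT), for 38 Zfp probes called lower and 3 called higher. Among the genes described array by array the difference was −1.16 for Zfp365, −2.44 for Zfp831, −1.30 for Zfp341, −1.04 for Zfp472, −1.58 for Zfp82, −1.50 for Zfp51, −1.94 for Zfp53, −0.93 for Zfp638, −1.11 for Zfp687, −1.47 for Zfp445 and 0.79 for Zfp316. For Zfp365 the response was a rise in both labels, and for Zfp316 it was a called rise in KO-labelled arrays.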

How the results depend on the processing

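Counts of Zfp probes called lower and higher were 136 and 15 in the KO-labelled response, 26 and 7 in the WT response, 38 and 3 in the difference of responses, 61 and 2 between labels at 7 Gy, and 0 and 0 at 0 Gy. Over all 19651 tested probes they were 6835 and 2353, 2595 and 1932, 2351 and 621, 3487 and 877, and 14 and 31. In that order of comparisons, and with 0 and 0 at 0 Gy unless given, the counts of Zfp probes under the alternatives follow. In brackets stand all probes called lower in the same order, without 0 Gy, of 19651 unless another number is given. With scaling to the median they were 105 and 22, 24 and 8, 21 and 3, 44 and 4 (5171, 2436, 1352, 2470). With the 75th percentile over all probes they were 98 and 25, 25 and 6, 8 and 3, 27 and 5 (4326, 2517, 680, 1749). After quantile normalization they were 92 and 17, 17 and 3, 6 and 3, 32 and 4 (4931, 2294, 713, 2069). After normexp correction they were 1 and 5, 0 and 1, 0 and 0, 0 and 0 (619, 409, 0, 137). The authors' value table holds 123 of the probes. There they were 59 and 16, 15 and 4, 4 and 0, 8 and 4 (2722, 1232, 226, 836 of 12863). For the 61 probes detected on all arrays they were 29 and 10, 7 and 3, 13 and 3, 20 and 2 (3093, 1650, 1308, 1626 of 7857). With no filter they were 113 and 12, 11 and 2, 11 and 0, 39 and 0 (5890, 1811, 916, 2350 of 39429). With 1 probe per gene they were 108 and 11, 22 and 3, 37 and 2, 55 and 1 (5488, 2100, 1985, 2877 of 15792). With the slide as a block they were 140 and 27, 31 and 12, 87 and 12, 97 and 12 (7500, 3093, 4178, 4856). With no arrays averaged they were 140 and 18, 27 and 7, 50 and 1, 64 and 2 (7199, 2681, 2623, 3648). Without arrays of a repeat-spot CV over 10% they were 131 and 15, 28 and 9, 19 and 0, 69 and 2 (6273, 2650, 1408, 3529). Without the 3 liver-rich arrays they were 133 and 14, 7 and 2, 21 and 0, 30 and 0 (6822, 1069, 1048, 1236). With all alike arrays averaged they were 124 and 14, 27 and 5, 21 and 1, 40 and 2 (6366, 2626, 1747, 2455). This setting was chosen after seeing the data. With the replicate number as a block they were 140 and 30, 37 and 15, 99 and 15, 103 and 12 (7825, 3628, 4965, 5422). At 0 Gy this block gave 2 and 1, beside 115 and 196 over all tested probes. Both block fits kept KO-labelled 0 Gy replicates 1 and 4 apart. Leaving out each array in turn gave 124 to 139 and 11 to 20, 15 to 29 and 3 to 9, 24 to 67 and 0 to 4, 52 to 84 and 1 to 4. Over all tested probes 5972 to 7286, 2059 to 2815, 1366 to 3445 and 2703 to 4485 were then lower.

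Of 99 called changes of named genes, 83 kept their call with scaling to the median, 72 with the 75th percentile over all probes, 61 after quantile normalization, 96 with the slide or the replicate number as a block, 62 without the liver-rich arrays and 5 after normexp correction. After the last, 30 turned direction: in KO-labelled arrays the log2 change became 0.0826 for Zfp82, 0.0518 for Zfp472, 0.17 for Zfp593, 0.21 for Zfp51, 0.16 for Zfp831, 0.49 for Zfp346, 0.44 for Zfp143, 0.0134 for Zfp608, 0.36 for Zfp281, 0.32 for Zfp445, 0.12 for Zfp148, 0.56 for Zfp451, 0.26 for Zfp106, 0.31 for Zfp809, 0.50 for Zfp36, 0.21 for Zfp341, 0.12 for Zfp57, 0.24 for Zfp932, 0.28 for Zfp687, 0.47 for Zfp507 and 0.54 for Zfp335, and in WT arrays 0.52 for Zfp689, 0.20 for Zfp296, 0.67 for Zfp422, 0.41 for Zfp608, 0.70 for Zfp90, 0.48 for Zfp566, 0.62 for Zfp472, 0.75 for Zfp800 and 0.0494 for Zfp638. Normexp moved the median change of all tested probes to 0.48 in KO-labelled arrays and 0.64 in WT arrays, beside 0.42 and 0.67 for Zfp probes; the cause was not tested. Signals near background limit most of these probes, whose median processed signal was 34.7 against 55.2 for all tested probes.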
